A study of Mus musculus with 31 samples.

Results

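The genes described here are 32 genes typical of the excitatory projection neurons of the cerebral cortex, taken as a fixed list of symbols and found by symbol in the expression table. All 32 were among its 52636 genes and all 32 passed the filter on low values in each comparison, so none was left out. They were measured by RNA sequencing of the caudate putamen (CPu), the dorsal part of the striatum, from 31 female mice on a C57BL/6NTac background, 8 to 11 weeks old. WT mice and Brd1+/- mice, which are heterozygous for a constitutive deletion within *Brd1*, a gene for a chromatin scaffold protein, were administered vehicle (n = 8 WT and n = 7 Brd1+/-) or imipramine (IMN), a tricyclic antidepressant, at 10 mg/kg (n = 8 and n = 8). The deletion is carried by all cells, each mouse gave its own library, and the mice had been through the forced swim test before the tissue was taken with a punch needle from frozen coronal slices. Values are TPM, the transcript abundance of a gene corrected for gene length in which every mouse has nearly the same total. The authors state a minimum number of reads for each sample, but the number in each mouse is not given. Precision therefore rests on the spread between mice.

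Projection neurons of the cortex use glutamate and lie in layers, where upper layer neurons connect cortical areas with each other and many deep layer neurons send axons out of the cortex. Their identity is set by transcription factors that follow one another during development, from *Emx1* in the cortical progenitors to the NeuroD factors and layer factors such as *Cux2* and *Fezf2*. Most neurons of the striatum are instead inhibitory medium spiny neurons, which receive glutamate from these cortical cells but do not make its vesicular transporter *Slc17a7*. The cortex lies over the CPu, separated from it by white matter.

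*Brd1*, given as a check of the genotype labels, was at 18.3 to 26.9 TPM in vehicle administered WT mice and 11.1 to 16.0 TPM in vehicle administered Brd1+/- mice, and at 14.6 to 22.5 TPM and 11.3 to 13.8 TPM under IMN. The genotypes did not overlap under either treatment. The libraries of 2 WT vehicle mice stood apart on other grounds. Mouse 2 had *Drd1* at 1.37 TPM, *Drd2* at 0.748 TPM and *Adora2a* at 1.02 TPM, which are receptors that define the medium spiny neurons, where the Brd1+/- vehicle mice had at least 162, 224 and 214 TPM. The tissue label was thus not borne out by these defining markers in that mouse. Mouse 7 had 26.8 TPM of 4 Y-linked genes in sum, against at most 0.188 TPM in any other mouse, although all mice are labelled female. Counts and medians over the 32 genes that use WT vehicle mice are given with and without both.

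*Slc17a7*, the vesicular glutamate transporter of cortical neurons, spans chr7:45163949-45176142 on the forward strand (GRCm38). In the 8 WT vehicle mice, in the order of their numbers, it was at 1412, 1008, 682, 1128, 1348, 2.57, 856 and 4.3 TPM. Mice 1 to 5 and 7 were high and mice 6 and 8 low, with no mouse in between. The 7 Brd1+/- vehicle mice had 7.33, 171, 125, 64.7, 103, 95.8 and 35.4 TPM, so that 6 WT mice lay above and 2 below all of them. In WT mice administered IMN, mouse 5 (809 TPM) and mouse 8 (265 TPM) were above every Brd1+/- vehicle mouse, and the other WT IMN mice had between 3.56 and 126 TPM. In Brd1+/- mice administered IMN the range was 4.96 to 286 TPM with a median of 76.5 TPM.

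**Figure D1:**
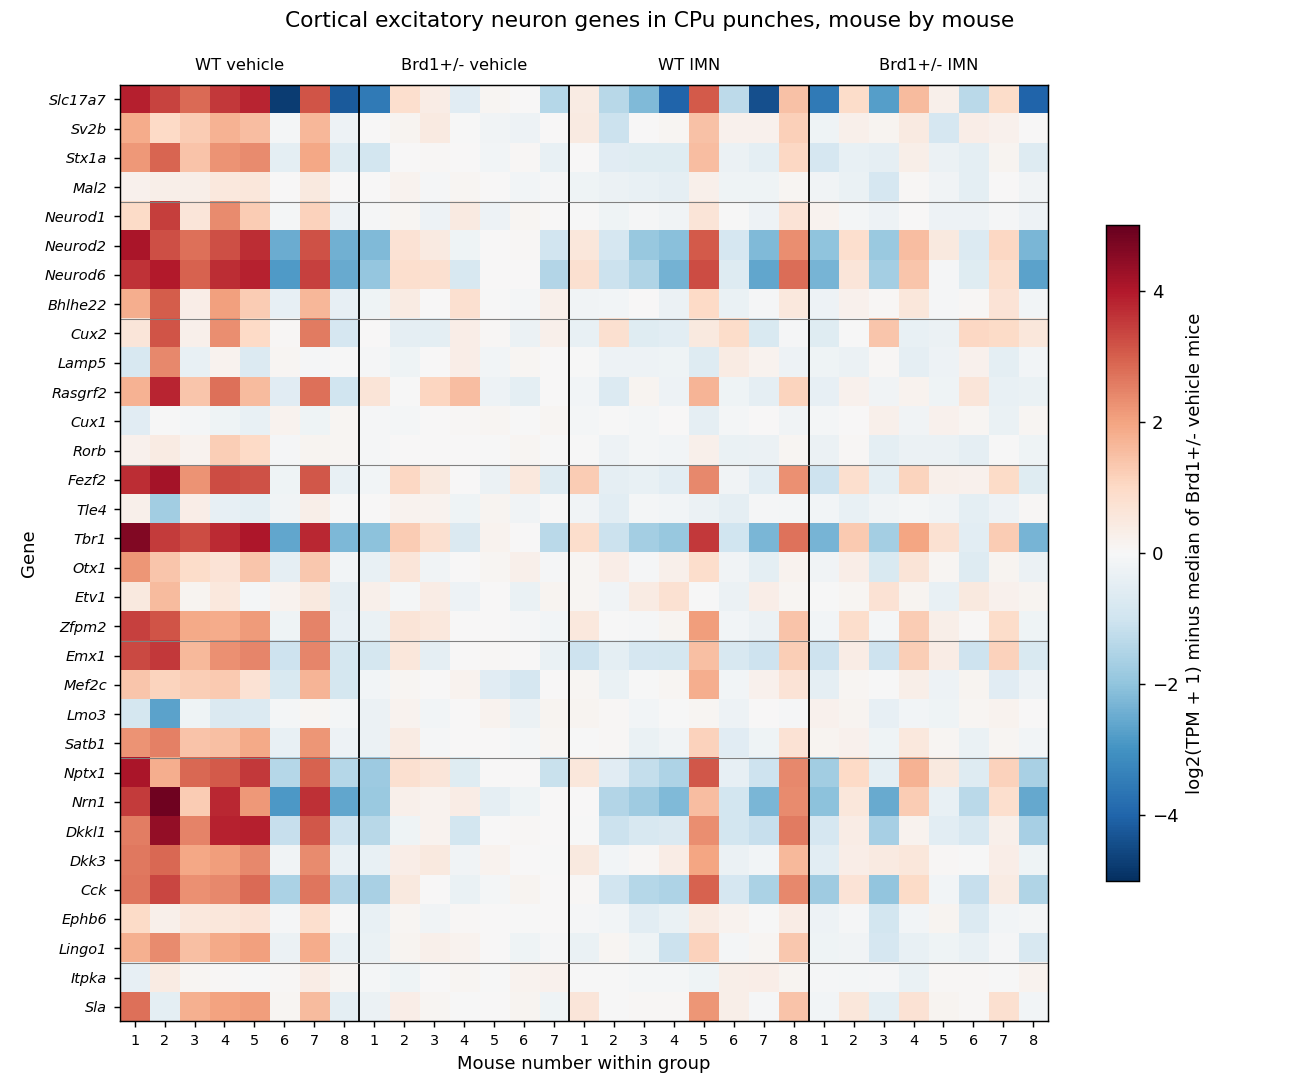
Each row is one of the 32 genes, ordered by role, and each column a mouse, in the 4 groups. Colour gives log2(TPM + 1) minus the median of the Brd1+/- vehicle mice for that gene, red where higher and blue where lower. Most rows are red in the same WT vehicle mice (1 to 5 and 7) and in WT IMN mice 5 and 8, while *Cux1*, *Lamp5*, *Tle4*, *Etv1*, *Lmo3*, *Mal2* and *Itpka* change little in most mice.

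The same mice stood out in most of the other genes. For 21 of the 32 genes, WT vehicle mice 1 to 5 and 7 were above every Brd1+/- vehicle mouse while mice 6 and 8 were not, a pattern that 10.3% of the 25394 genes above 0.1 TPM in at least 7 mice showed as well. With mice 2 and 7 left out, 22 of the 32 genes had mice 1, 3, 4 and 5 above and mice 6 and 8 not, against 13.3% of all these genes. This pattern was noticed in the data and is a description. Counted by mouse, 24 to 29 of the 32 genes were above every Brd1+/- vehicle mouse in each of WT vehicle mice 1 to 5 and 7, but only 1 in mouse 6 and 2 in mouse 8. Of all 25394 genes, 30.7% to 46.6% were above in the former 6 mice, and 12.4% and 7.88% in mice 6 and 8. Of the mice administered IMN, WT mice 5 and 8 had 26 and 21 such genes, against 32.5% and 27.8% of all genes, and Brd1+/- mice 4, 7 and 2 had 16, 12 and 9, against 15.2%, 13.5% and 19.8%. In every other IMN mouse the number was 1 to 4, against 7.36% to 26.6% of all genes. The highest value over all 31 mice fell in WT vehicle mouse 2 for 17 genes and in WT vehicle mouse 1 for 9 genes.

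*Neurod1*, *Neurod2*, *Neurod6* and *Bhlhe22* are basic helix-loop-helix factors, a family that binds the E-box, the letters CANNTG. The upstream bases of 3 genes that followed this mouse pattern, chosen after their values were seen, are shown with each E-box in capitals, 5′ to 3′, from RefSeq on GRCm38.p6, 250 bases each. *Slc17a7* is at chr7:45163671-45163920 on the forward strand, *Neurod6* at chr6:55681264-55681513 and *Cck* at chr9:121495695-121495944 on the reverse strand.
Slc17a7: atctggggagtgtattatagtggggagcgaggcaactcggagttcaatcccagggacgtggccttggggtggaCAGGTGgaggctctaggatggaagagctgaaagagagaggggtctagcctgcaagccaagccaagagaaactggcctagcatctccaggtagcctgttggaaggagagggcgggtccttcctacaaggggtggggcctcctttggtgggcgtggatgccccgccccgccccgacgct
Neurod6: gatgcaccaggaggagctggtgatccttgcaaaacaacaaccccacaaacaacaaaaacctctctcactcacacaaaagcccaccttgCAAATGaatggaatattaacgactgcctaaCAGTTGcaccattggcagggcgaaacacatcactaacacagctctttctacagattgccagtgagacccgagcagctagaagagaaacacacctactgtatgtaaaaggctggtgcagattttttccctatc
Cck: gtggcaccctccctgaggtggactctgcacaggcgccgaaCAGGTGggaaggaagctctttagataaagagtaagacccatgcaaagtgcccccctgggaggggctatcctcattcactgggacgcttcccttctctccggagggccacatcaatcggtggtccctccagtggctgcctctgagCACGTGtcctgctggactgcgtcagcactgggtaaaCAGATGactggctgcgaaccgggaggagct

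These windows held 1, 2 and 3 E-boxes, the third of *Cck* being CAGATG, a form of the site bound by NeuroD factors. RefSeq windows were found for 24 of the 32 genes, with 39 windows in all, since some genes have several starts. CANNTG was present in 28 of the 39 windows (71.8%) and in 66.2% of the 32851 windows of the same length over all genes. CAGATG, searched on both strands and contained in CANNTG, was present in 6 of 39 (15.4%) against 14.4%. The letters were thus about as frequent before these genes as before others, and a match is a description and not a site.

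The first comparison asks whether genotype changed expression under vehicle. In Brd1+/- mice 11 of the 32 genes were lower at a nominal p under 0.01 and none was higher (limma on log2(TPM + 1)), where 13.6% of the 23200 genes tested passed in either direction and 12.1% were lower. None passed an FDR of 5% (limma), as none of all genes did. At an unadjusted p under 0.05 there were 23 of the 32 genes, against 30.9% of all genes. The log2 fold change was negative for 29 of the 32 genes and positive for *Lmo3*, *Tle4* and *Cux1*. Its median over the 32 genes was −1.22, against −0.13 over all genes tested. No gene of the 32 had groups that did not overlap between genotypes, against 0.289% of all genes. In tissue punches, fewer cells of a type and less RNA per cell cannot be told apart.

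The call rested on the WT vehicle mice. Without mouse 2 it was 11 genes and without mouse 7 it was 9, against 10.3% and 9.66% of all genes. Without both it was 3 genes, *Sv2b*, *Ephb6* and *Sla*, against 5.83% of all genes. Their log2 fold changes were then −0.98, −0.49 and −1.37, each with an adjusted p of 0.165 (limma), and *Sla* is named here after its values were seen. The other 9 of the 11 genes did not pass without both mice, with log2 fold changes of −2.08 for *Dkkl1*, −1.83 for *Fezf2*, −1.44 for *Emx1*, −1.36 for *Dkk3*, −1.36 for *Stx1a*, −1.34 for *Zfpm2*, −1.10 for *Lingo1*, −1.06 for *Satb1* and −0.27 for *Mal2*, and p values of 0.0104 to 0.0392 (limma). The median over the 32 genes was then −1.02, against −0.12 over all genes, 27 were negative, and 16 were at a p under 0.05, where 22.5% of all genes were. Leaving out mouse 6 raised it to 21 genes (19.9% of all genes) and leaving out mouse 8 to 22 genes (22.4%), and 21 and 23 genes then passed an FDR of 5%, against 19.9% and 23.8% of all genes. After median-of-ratios scaling 9 of the 32 genes passed a p under 0.01, all lower, where 9.19% of all genes passed and 5.31% were lower.

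Among the genes of the glutamatergic vesicle and synapse, 3 of 4 were lower in Brd1+/- mice. *Stx1a*, a syntaxin of the presynaptic membrane, ranged from 25.8 to 314 TPM with a median of 177 TPM in WT mice and from 21.7 to 43.4 TPM with a median of 41.5 TPM in Brd1+/- mice. All WT mice other than 6 and 8 had at least 113 TPM, above every Brd1+/- mouse. The log2 fold change was −1.67 (SE 0.47, adjusted p = 0.0556 from limma). *Sv2b*, a synaptic vesicle protein, had medians of 148 and 54.8 TPM and a log2 fold change of −1.06 (SE 0.30, adjusted p = 0.0556 from limma). *Mal2*, a membrane trafficking protein, differed least, with 96.4 to 143 TPM in WT and 87.0 to 108 TPM in Brd1+/- mice and a log2 fold change of −0.30 (SE 0.09, adjusted p = 0.0618 from limma). After median-of-ratios scaling it was −0.11 and no longer passed a p under 0.01, and it did not pass with all 4 groups in a single model or in 7 of the 15 fits that left out 1 mouse. *Slc17a7* itself, with the widest spread, had a log2 fold change of −2.05 (SE 1.35, adjusted p = 0.308 from limma) and did not pass. It had the same 6 high WT mice, but the 2 low WT mice were below every Brd1+/- mouse.

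None of the 4 neuronal basic helix-loop-helix factors passed a p under 0.01, and all 4 had a p under 0.05, of which only *Neurod1* did without WT vehicle mice 2 and 7. *Neurod6*, a factor of differentiating and mature projection neurons, was at 0.165 to 127 TPM in WT vehicle mice (median 92.3 TPM) and 1.15 to 13.8 TPM in Brd1+/- vehicle mice (median 7.21 TPM). *Neurod2*, which acts with it, had medians of 58.0 and 5.4 TPM. For both, mice 6 and 8 were below every Brd1+/- mouse, at 0.446 TPM or less, and the other WT mice were above. *Neurod1*, an earlier factor of this family, and *Bhlhe22* (Bhlhb5), a factor of postmitotic neurons, were low in most mice but not in WT vehicle mouse 2, which had 12.1 and 12.6 TPM. The next highest mouse was WT vehicle mouse 4 for both, at 5.2 and 5.86 TPM.

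Of the 6 deep layer genes, 5 had negative log2 fold changes, and *Fezf2* and *Zfpm2* were lower at a p under 0.01. *Fezf2*, a determinant of neurons that project below the cortex (chr14:12342094-12348189, reverse strand, GRCm38), was at 56.3, 78.3, 19.8, 41.5, 39.2, 2.74, 36.6 and 2.41 TPM in WT vehicle mice 1 to 8. The 7 Brd1+/- vehicle mice had 3.01, 8.06, 5.18, 3.39, 2.57, 5.25 and 1.84 TPM, all below the lowest of the 6 high WT mice. The log2 fold change was −2.25 (SE 0.63, adjusted p = 0.0556 from limma). *Zfpm2*, a zinc finger cofactor of GATA factors found in deep layer neurons, had medians of 6.96 and 0.959 TPM and a log2 fold change of −1.69 (SE 0.50, adjusted p = 0.0578 from limma). *Tbr1*, a T-box factor of layer 6, was at 60.9 to 158 TPM in the same 6 WT mice, at 0.0671 and 0.34 TPM in mice 6 and 8, and at 0.536 to 14.4 TPM in Brd1+/- mice. Its log2 fold change of −2.52 (SE 1.07, adjusted p = 0.125 from limma) did not pass, but it passed without WT vehicle mouse 6, at −3.22, and without mouse 8 or with the replicate block, at −3.17. *Otx1*, a factor of layer 5 and 6 neurons, was low, with at most 7.03 TPM in any mouse. *Etv1*, a layer 5 gene, and *Tle4*, a corepressor of layer 6, did not follow the pattern. *Tle4* was at 41.8 to 56.1 TPM in Brd1+/- mice and at 13.9 to 61.2 TPM in WT mice, with a log2 fold change of 0.27 (SE 0.24, adjusted p = 0.465 from limma).

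None of the 5 upper layer genes passed a p under 0.01, although *Cux2* passed with all 4 groups in a single model and, at −1.51, with the replicate block or without WT vehicle mouse 8, and *Rasgrf2* passed, at −1.57, with the block. *Cux2*, a homeobox factor of layers 2 to 4 (chr5:121856366-122050102, reverse strand, GRCm38), was at 5.83, 39.1, 4.36, 22.0, 8.07, 3.67, 26.7 and 1.55 TPM in WT vehicle mice and at 2.24 to 4.76 TPM in Brd1+/- vehicle mice. Only mice 2, 4 and 7 were far above the other group. Its log2 fold change was −1.23 (SE 0.50, adjusted p = 0.112 from limma). *Rasgrf2*, a guanine nucleotide exchange factor of upper layer neurons, was at 61.2, 28.3 and 28.9 TPM in the same 3 mice and at 13.7 TPM or less in the others, with a log2 fold change of −1.21 (SE 0.61, adjusted p = 0.192 from limma). *Lamp5*, a lysosomal membrane protein family member, was at 552 TPM in mouse 2 and at 59.0 to 118 TPM in the other WT vehicle mice, against 88.2 to 129 TPM in Brd1+/- mice. Its log2 fold change was −0.09 (SE 0.35, adjusted p = 0.882 from limma), and it was 0.24 without mouse 2 and 0.10 after median-of-ratios scaling. *Cux1*, the paralogue of *Cux2*, and *Rorb*, a layer 4 nuclear receptor, were at 29.2 to 52.2 TPM and 1.58 to 7.57 TPM over all mice. *Cux1* was lower, not higher, in WT vehicle mice 1, 4, 5 and 7 than in every Brd1+/- vehicle mouse.

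Of the 4 other transcription factors, 3 had negative log2 fold changes, and *Emx1* and *Satb1* were lower at a p under 0.01. *Satb1*, a chromatin organizer found in projection neurons and some interneurons, was at 21.5 to 46.3 TPM in the 6 high WT mice, at 5.46 and 5.96 TPM in mice 6 and 8, and at 5.78 to 10.1 TPM in Brd1+/- mice. Its log2 fold change was −1.39 (SE 0.39, adjusted p = 0.0556 from limma). *Emx1*, a homeobox gene of cortical progenitors and their excitatory progeny, was listed at 0 in mouse 6 and reached 23.2 TPM in mouse 2, with a log2 fold change of −1.86 (SE 0.62, adjusted p = 0.0701 from limma). *Emx1* no longer passed in 12 of the 15 fits that left out 1 mouse, nor with a pseudocount of 0.1, without a filter or after median-of-ratios scaling. *Mef2c*, an activity-dependent factor, had medians of 44.5 and 19.3 TPM and did not pass a p under 0.01. *Lmo3*, a LIM domain cofactor that striatal neurons express as well, ran the other way, with 22.4 TPM in mouse 2 and 122 to 169 TPM in Brd1+/- mice.

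All 7 secreted and surface proteins had negative log2 fold changes, and 4 were among the 11 genes lower at a p under 0.01. *Dkk3*, a secreted Dickkopf family protein, was at 145 to 279 TPM in the 6 high WT mice, 33.3 and 28.9 TPM in mice 6 and 8, and 29.1 to 53.1 TPM in Brd1+/- mice, with a log2 fold change of −1.66 (SE 0.45, adjusted p = 0.0556 from limma). *Dkkl1*, a related protein, had a log2 fold change of −2.58 (SE 0.77, adjusted p = 0.0580 from limma) and medians of 22.0 and 2.17 TPM. It did not pass with a pseudocount of 0.1 or without Brd1+/- vehicle mouse 1. *Lingo1*, a neuronal leucine-rich repeat protein of the Nogo receptor complex, had a log2 fold change of −1.36 (SE 0.37, adjusted p = 0.0556 from limma) and medians of 198 and 55.5 TPM. *Ephb6*, an ephrin receptor without kinase activity, changed by −0.52 (SE 0.15, adjusted p = 0.0556 from limma), from a median of 69.8 to 47.2 TPM. *Nptx1*, a pentraxin that clusters AMPA receptors, *Nrn1*, neuritin, and *Cck*, the neuropeptide cholecystokinin, did not pass a p under 0.01, although their medians were 196, 97.0 and 318 TPM in WT and 25.0, 11.4 and 53.7 TPM in Brd1+/- mice. For *Nrn1* mice 6 and 8 were at 0.7 and 1.05 TPM, below all other mice of either vehicle group, while mouse 2 was at 358 TPM.

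The pair of signalling proteins differed from each other. *Itpka*, an inositol trisphosphate kinase of dendritic spines, was at 65.3 to 116 TPM over all 31 mice, so that its highest value was 1.78 times its lowest. *Sla*, a Src-like adaptor, was at 17.4 TPM in WT vehicle mouse 1 but at 0.908 TPM in mouse 2, below every Brd1+/- vehicle mouse. Neither passed a p under 0.01. *Cux1* and *Mal2* also varied less than 3 times between the highest and lowest of all mice, whereas *Neurod6* varied 769 times and *Slc17a7* 549.9 times. For *Cux1*, *Itpka*, *Lmo3*, *Tle4* and *Lamp5*, at most 3 WT vehicle mice were above every Brd1+/- vehicle mouse. These 5 genes were at 42.9 TPM or more in WT vehicle mice 6 and 8, where *Slc17a7* was at 2.57 and 4.3 TPM, so the label of cortical excitatory neurons describes them less well in these samples.

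**Figure D2:**
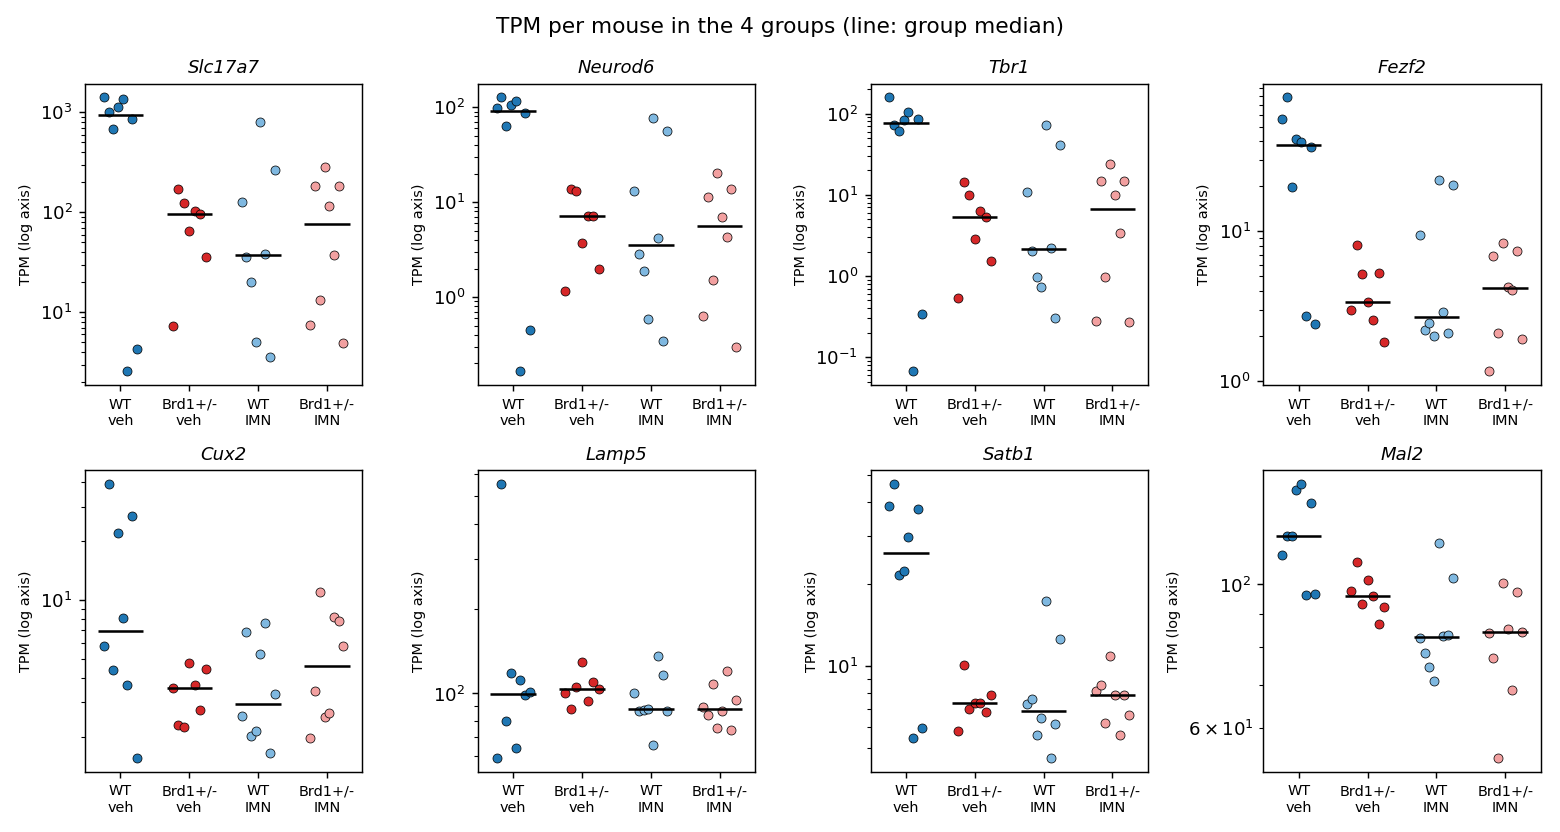
TPM on a log axis for 8 of the genes, with 1 point per mouse and a line at the group median, in WT and Brd1+/- mice administered vehicle (veh) or IMN. *Slc17a7*, *Neurod6*, *Tbr1* and *Fezf2* split the WT vehicle mice into 6 high and 2 low mice, *Cux2* spreads them, and *Lamp5* is high in mouse 2 alone.

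Upper and deep layer genes did not come in a fixed proportion. The sum of *Cux2* and *Rasgrf2* divided by that of *Fezf2* and *Tbr1* was 0.091, 0.671, 0.185, 0.403, 0.142 and 0.456 in WT vehicle mice 1, 2, 3, 4, 5 and 7, which all had high *Slc17a7*. Mice 1, 3 and 5 had the upper pair at 19.5, 14.9 and 20.2 TPM, low beside their deep pair. In mice 1 and 5 it was still above every Brd1+/- vehicle mouse (at most 16.5 TPM). Mice 2, 4 and 7 had more of the upper pair, at 100, 50.3 and 55.6 TPM. In WT IMN mice 5 and 8 the ratio was 0.196 and 0.192. In mice with little *Slc17a7* it reached 4.5, with small sums on both sides. A mean of log2(TPM + 1) over *Cux2*, *Lamp5* and *Rasgrf2* minus that over *Fezf2*, *Tle4* and *Tbr1* had a median of −0.33 in WT vehicle mice, from −2.16 in mouse 1 to 1.34 in mouse 2. It had medians of 0.066 in Brd1+/- vehicle, 0.68 in WT IMN and 0.29 in Brd1+/- IMN mice. In mice with little *Slc17a7* this difference rests largely on *Lamp5* and *Tle4*, which were at 59.0 and 13.9 TPM or more in every mouse. It therefore describes cortical layers less well there. These medians were not stable, since leaving out 1 mouse gave −0.015 to 0.50 in Brd1+/- vehicle and −0.35 to 0.94 in Brd1+/- IMN mice, and leaving out mice 2 and 7 gave −0.79 in WT vehicle mice. With longer layer lists the median of WT vehicle mice turned positive and that of Brd1+/- vehicle mice rose to 0.94. The SD within groups was 0.79 to 1.25, larger than most differences between the group medians, and no test was made of this level.

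**Figure D3:**
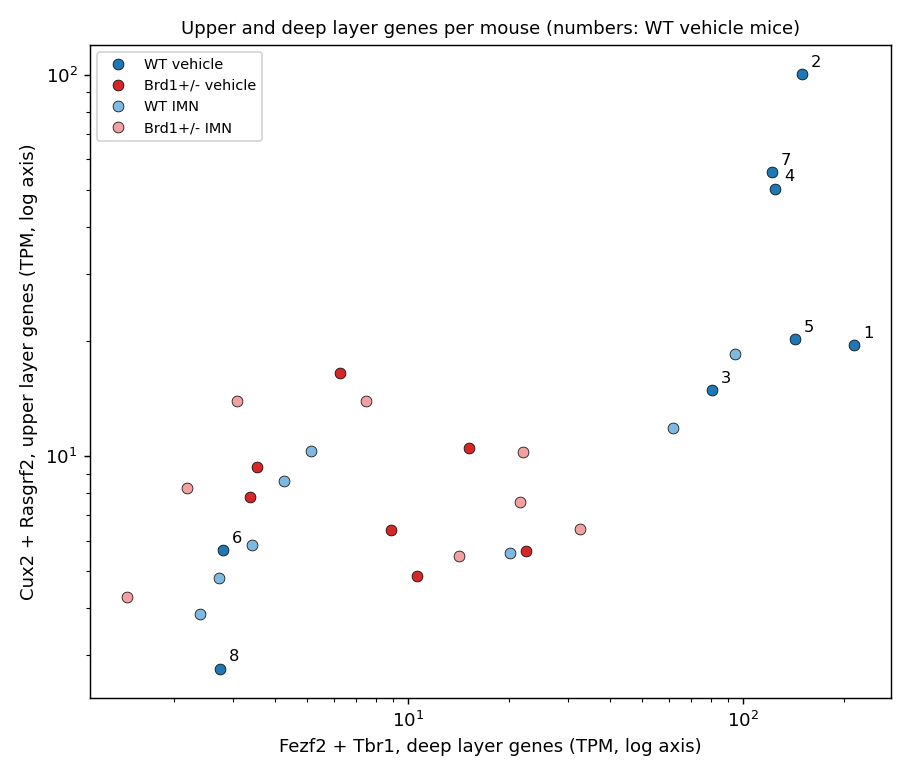
Each point is a mouse, with the summed TPM of *Fezf2* and *Tbr1* on the horizontal and that of *Cux2* and *Rasgrf2* on the vertical axis, both logarithmic, coloured by group. WT vehicle mice 2, 4 and 7 lie at the upper right, mice 1, 3 and 5 at the lower right, and mice 6 and 8 at the lower left.

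WT vehicle mice 1 and 2 differed in what else came with the high cortical genes. Mouse 1 had *Tbr1* at 158 TPM, *Nptx1* at 434 TPM and *Mbp*, a myelin protein, at 1419 TPM, with a summed oligodendrocyte marker level of 9315 TPM against 1392 to 5429 TPM in the other WT vehicle mice. Mouse 2 had *Lamp5* at 552 TPM, *Neurod1* at 12.1 TPM and *Slc17a6*, the second vesicular glutamate transporter, at 32.1 TPM, while *Tle4*, *Lmo3* and *Sla* were at 13.9, 22.4 and 0.908 TPM. The next highest *Slc17a6* value over all mice was 4.41 TPM, in WT vehicle mouse 7. Mouse 2 thus combined the highest *Cux2*, *Rasgrf2* and *Fezf2* with the lowest *Tle4* and *Lmo3* of all mice.

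In WT vehicle mice, markers of striatal neurons were low where the 32 genes were high. The summed TPM of the 32 genes was 4284, 4626, 2635, 3672, 3961, 810, 3498 and 783 in WT vehicle mice 1 to 8, and that of 12 medium spiny neuron markers was 1283, 288, 6716, 3509, 2550, 10223, 4626 and 10709. Brd1+/- vehicle mice had sums of 768 to 1208 TPM for the 32 genes and of 8648 to 10098 TPM for the medium spiny neuron markers. Between the vehicle groups all 12 of these markers had a positive log2 fold change in Brd1+/- mice, with a median of 1.63, and 2 passed a p under 0.01, where 1.47% of all genes were higher. Without mice 2 and 7 all 12 remained positive with a median of 1.06, 12 had a p under 0.05 and 0 passed a p under 0.01 (limma). None of the 12 was at 0 in all mice of a group, and *Drd1*, *Drd2* and *Adora2a* were near 0 in WT vehicle mouse 2 alone. All 6 pan-neuronal genes were negative and 5 were lower at a p under 0.01, where 12.1% of all genes were. Their sum was 1981 to 5590 TPM in WT and 1965 to 2250 TPM in Brd1+/- vehicle mice. Of 8 inhibitory neuron genes 3 were lower and 2 higher at a p under 0.01, and 7 had a p under 0.05. Their sums were 1237 to 1609 TPM in WT and 1131 to 1412 TPM in Brd1+/- vehicle mice. None of 8 oligodendrocyte, 8 astrocyte, 8 microglia, 8 endothelial or 5 erythrocyte markers passed. Of 31 further genes of cortical projection neurons, 6 were lower and 1 higher at a p under 0.01, where 12.1% and 1.47% of all genes were. At a p under 0.05 there were 17 of the 31, against 30.9% of all genes. Their log2 fold changes were negative for 21 and positive for 10, from −3.60 to 0.96 with a median of −0.38. Without mice 2 and 7, 3 of 30 were lower and 0 higher at a p under 0.01, where 5.19% and 0.637% of all genes were, with a median of −0.26, and of the inhibitory neuron genes 2 were lower and 0 higher. The summed TPM of the 31 further genes, of which *Arpp21* and *Camk2a* made up 38.4% and 16.6%, was 2633, 2291, 3251, 3155, 2480, 3328, 3017 and 3003 in WT vehicle mice 1 to 8 and 2873 to 3476 in Brd1+/- vehicle mice. It was lowest in mouse 2, where the medium spiny neuron markers were lowest (288 TPM), and highest in mouse 6, where they were at 10223 TPM. This sum thus did not follow that of the 32 genes, and the part of striatal neurons in it was not tested. The part of these other markers in the differences of the 32 genes was not tested.

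**Figure D4:**
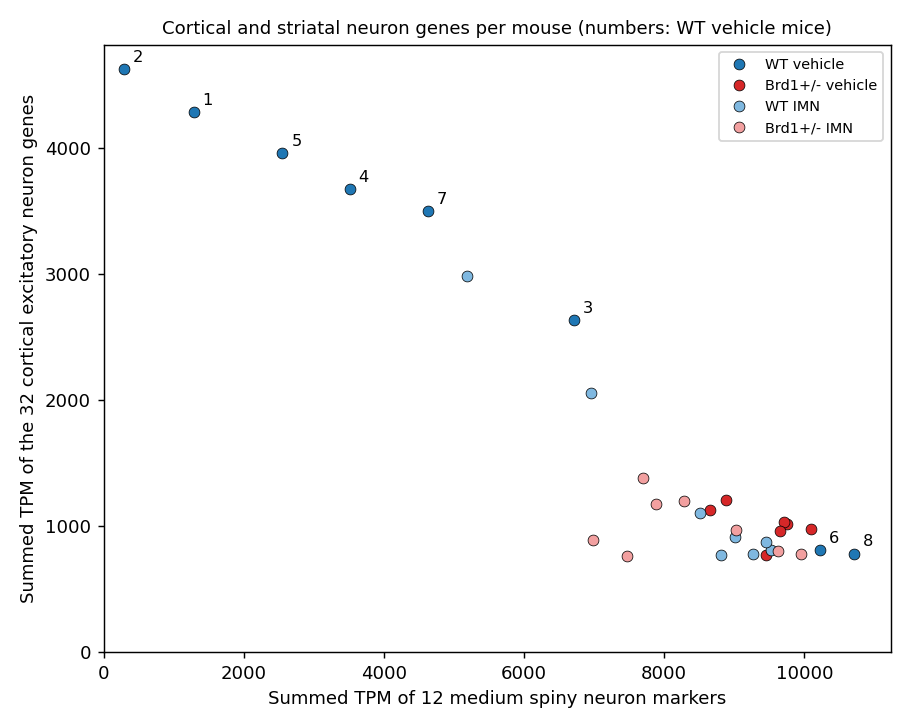
Each point is a mouse, with the summed TPM of 12 medium spiny neuron markers on the horizontal axis and that of the 32 cortical excitatory neuron genes on the vertical axis, coloured by group. WT vehicle mice 1 to 5 and 7 and WT IMN mice 5 and 8 lie at 2059 TPM or more for the cortical genes and at 6957 TPM or less for the markers, and the other mice lie at the lower right.

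Under IMN, genotype was compared in the same way. None of the 32 genes passed a p under 0.01 or 0.05 (limma), where 0.703% and 3.92% of the 23339 genes tested did (0.514% lower and 0.189% higher at a p under 0.01). None passed an FDR of 5% or had groups that did not overlap, as against 0.00428% and 0.0129% of all genes. The median log2 fold change was −0.17 over the 32 genes and −0.03 over all genes, and 24 of the 32 were negative. *Slc17a7* had a log2 fold change of 0.06 (SE 1.09, adjusted p = 1.00 from limma), with WT mice at 3.56 to 809 TPM and Brd1+/- mice at 4.96 to 286 TPM. *Fezf2* had a log2 fold change of −0.33 (SE 0.48), *Tbr1* one of −0.09 (SE 0.90), *Rasgrf2* one of −0.21 (SE 0.29), *Lamp5* one of −0.06 (SE 0.13), *Tle4* one of 0.02 (SE 0.09) and *Cux2* one of 0.35 (SE 0.32), each with an adjusted p of at least 0.998 (limma). The standard errors of *Slc17a7* and *Tbr1* leave room for differences of a factor of 2 or more in either direction. For *Slc17a7* only WT mouse 5, at 809 TPM, lay above and only WT mouse 7, at 3.56 TPM, lay below every Brd1+/- mouse administered IMN.

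The effect of IMN was compared within each genotype. In WT mice 4 of the 32 genes were lower under IMN and none was higher at a p under 0.01, where 6.95% of the 23579 genes tested passed in either direction, 5.6% lower and 1.35% higher. None of the 32 passed an FDR of 5% or had groups that did not overlap, as against 0.00424% and 0.144% of all genes, and 17 had an unadjusted p under 0.05, against 23.1% of all genes (limma). Without WT vehicle mice 2 and 7, 8 were at a p under 0.05, where 13.2% of all genes were. *Mal2* had a log2 fold change of −0.47 (SE 0.11, adjusted p = 0.141 from limma), with 71.0 to 116 TPM under IMN and 96.4 to 143 TPM under vehicle. Only WT IMN mice 5 and 8 were above 83.4 TPM. *Satb1* had a log2 fold change of −1.32 (SE 0.41, adjusted p = 0.141), *Emx1* one of −2.02 (SE 0.66, adjusted p = 0.141) and *Stx1a* one of −1.48 (SE 0.51, adjusted p = 0.143, all from limma). Of the 16 fits that left out 1 mouse, *Stx1a* and *Emx1* did not pass in 12 each and *Satb1* in 5, whereas *Mal2* passed in all. *Stx1a* also did not pass with a pseudocount of 0.1, without a filter, with a mean TPM of at least 1 or with the replicate block, and *Emx1* not with that pseudocount or the block. *Slc17a7* had a log2 fold change of −2.50 (SE 1.45, adjusted p = 0.304 from limma) and did not pass. Of the layer genes, *Fezf2* (−1.90, SE 0.70, adjusted p = 0.151), *Tbr1* (−2.36, SE 1.18, adjusted p = 0.238), *Cux2* (−1.16, SE 0.50, adjusted p = 0.185) and *Rasgrf2* (−1.41, SE 0.60, adjusted p = 0.178) had negative log2 fold changes that did not pass (limma). With all 4 groups in a single model *Fezf2* and *Rasgrf2* passed, as they did without WT vehicle mouse 6 or 8. *Fezf2* also passed without WT IMN mouse 5 or 8, and *Cux2* without WT vehicle mouse 8. *Lamp5* (−0.23, SE 0.34, adjusted p = 0.718) and *Tle4* (0.03, SE 0.23, adjusted p = 0.958) were close to 0 (limma). The median over the 32 genes was −1.19, against −0.08 over all genes, and −0.82 against −0.07 without WT vehicle mice 2 and 7.

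The WT comparison used the same vehicle mice as the genotype comparison, and its count moved with single mice. It was 2 genes without WT vehicle mouse 2 (4.44% of all genes), 1 without mouse 7 (4.58%), and 2 without both (2.71%), *Mal2* lower and *Lmo3* higher, the latter named after its values were seen. *Emx1*, *Stx1a* and *Satb1* then had log2 fold changes of −1.59, −1.17 and −0.996 and did not pass. It was 16 genes without WT vehicle mouse 6 (13.6%) or mouse 8 (15.3%), 11 without WT IMN mouse 5 (10.3%) and 8 without WT IMN mouse 8 (7.81%). Leaving out any of the other 10 mice gave 1 or 2 genes, against 3.88% to 6.59% of all genes. Medium spiny neuron markers were again positive, 12 of 12 with a median log2 fold change of 1.47 (0.88 without mice 2 and 7, again 12 of 12), and their sum was 5178 to 9524 TPM in WT IMN mice, lowest in mice 5 and 8. All 6 pan-neuronal genes were negative with a median of −0.67, and 3 were lower at a p under 0.01, where 5.6% of all genes were. Without mice 2 and 7 all 6 were again negative with a median of −0.54 and 4 had a p under 0.05, but 0 passed a p under 0.01. All 5 erythrocyte markers were negative with a median of −0.54, of which 2 passed a p under 0.01 and 4 a p under 0.05. Without mice 2 and 7 all 5 were again negative with a median of −0.41, and 3 had a p under 0.05 but 0 passed a p under 0.01. Their sums were 163 to 323 TPM under IMN against 211 to 403 TPM under vehicle. Of 8 inhibitory neuron genes 1 was lower and 1 higher. The part of these markers in the result was not tested.

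In Brd1+/- mice 1 of the 32 genes was lower under IMN and none higher at a p under 0.01, where 1.83% of the 23020 genes tested passed in either direction, 0.964% lower and 0.869% higher. It was *Lingo1*, with 43.6 to 65.8 TPM under vehicle and 30.7 to 53.4 TPM under IMN and a log2 fold change of −0.37 (SE 0.12, adjusted p = 0.526 from limma). None passed an FDR of 5%, 4 had an unadjusted p under 0.05, against 7.09% of all genes, and the median log2 fold change was −0.06, against 0.01 over all genes (limma). Without 1 mouse the count was 0 to 2, against 1.34% to 2.18% of all genes, and *Lingo1* did not pass in 9 of these 15 fits. Of the 32 genes 18 were negative and 14 positive. All 12 medium spiny neuron markers were negative, with a median of −0.19, and 1 was lower at a p under 0.01. In Brd1+/- IMN mice 3 and 6 the sums of the markers (7474 and 6982 TPM) were below that of every Brd1+/- vehicle mouse (at least 8648 TPM). The sum of the 32 genes was 764 TPM in mouse 3, the lowest of this group, and 886 TPM in mouse 6, near the group median of 930 TPM. *Slc17a7* (−0.39, SE 0.88), *Fezf2* (0.01, SE 0.33), *Tbr1* (0.07, SE 0.70), *Cux2* (0.41, SE 0.28), *Rasgrf2* (−0.42, SE 0.27), *Lamp5* (−0.19, SE 0.10) and *Tle4* (−0.22, SE 0.09) did not pass, with adjusted p values of 0.617 to 0.998 (limma), although *Tle4* passed a p under 0.01 without Brd1+/- vehicle mouse 4 or IMN mouse 8. *Cux2* was above the highest Brd1+/- vehicle mouse in Brd1+/- IMN mice 3, 6, 7 and 8, at 11.0, 8.16, 7.79 and 5.79 TPM. In mice 3 and 8 this came with *Slc17a7* at 13.4 and 4.96 TPM, so the highest *Cux2* of this group did not come with the highest *Slc17a7*.

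**Figure D5:**
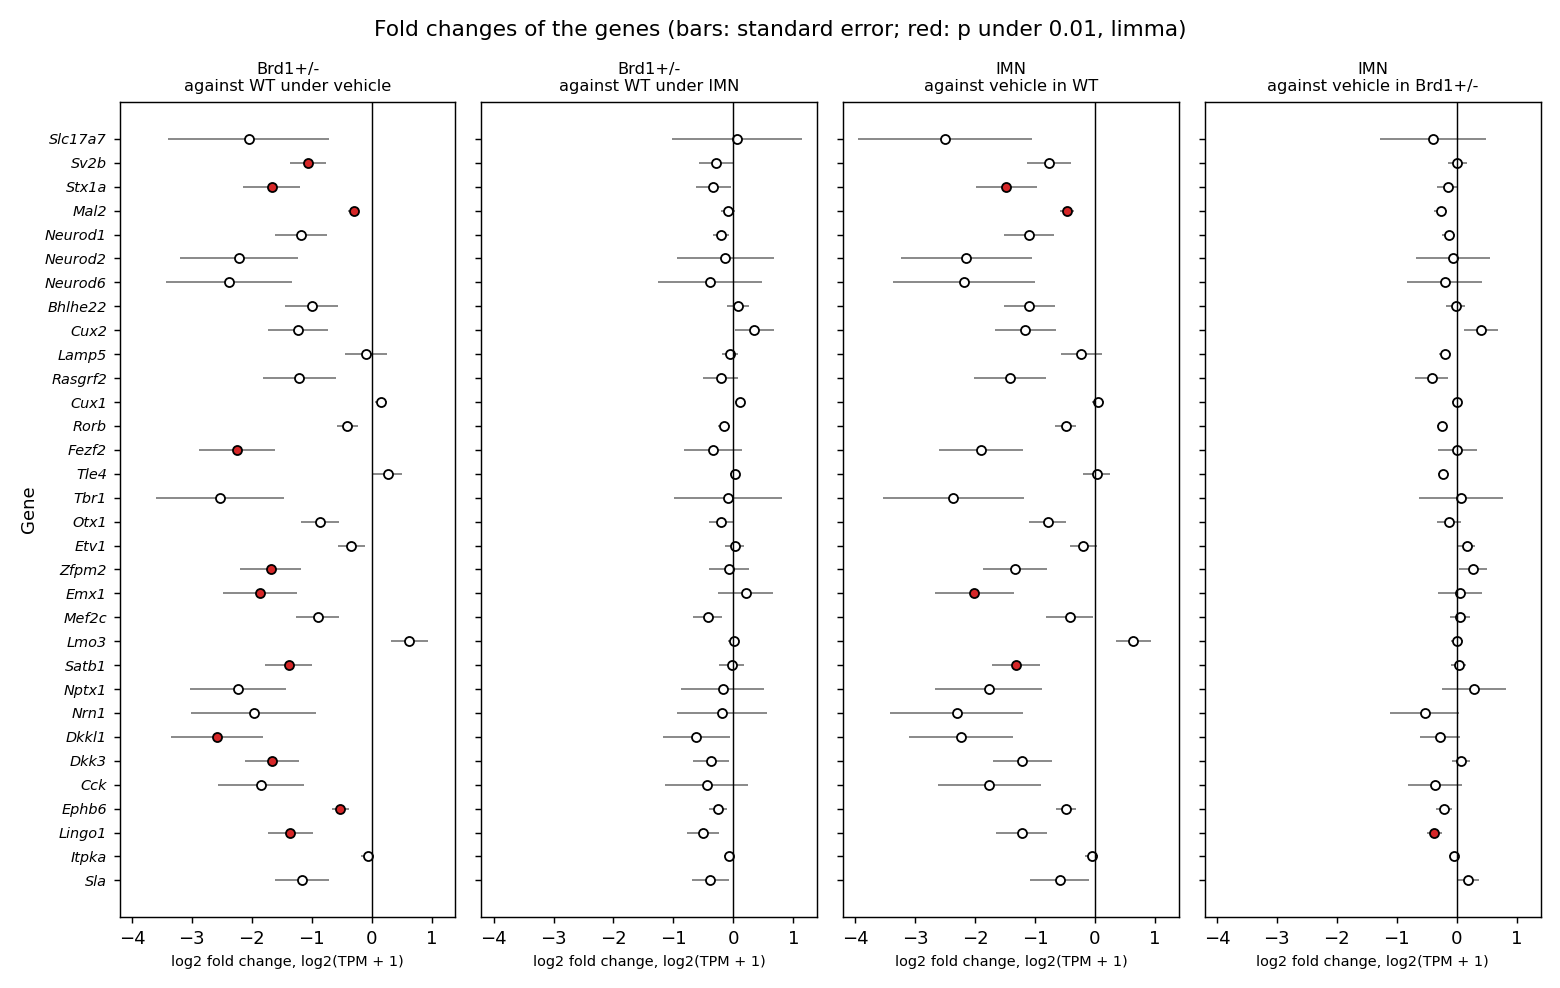
Log2 fold change of each of the 32 genes on the log2(TPM + 1) scale, with bars of 1 SE, in the 4 comparisons of 2 groups. Red points have a p under 0.01 by limma. Most points lie left of 0 for genotype under vehicle and for IMN in WT mice, and near 0 in the other comparisons.

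The difference between the genotypes in the effect of IMN was tested as an interaction over all 31 mice. It was positive at a p under 0.01 for 1 of the 32 genes and negative for none, where 3.74% of the 25394 genes tested passed in either direction, 2.97% positive and 0.78% negative. The gene was *Satb1*, whose log2 change under IMN was 1.36 higher in Brd1+/- than in WT mice (SE 0.45, adjusted p = 0.261 from limma). None passed an FDR of 5%, and 9 had an unadjusted p under 0.05, against 16.2% of all genes (limma). Without WT vehicle mice 2 and 7, 2 were at a p under 0.05, where 10.3% of all genes were, and *Satb1* was at 1.03 and did not pass a p under 0.01. The interaction was 2.11 (SE 1.81, adjusted p = 0.568) for *Slc17a7*, 1.57 (SE 0.61, adjusted p = 0.261) for *Cux2*, 1.91 (SE 0.82, adjusted p = 0.274) for *Fezf2*, 2.43 (SE 1.46, adjusted p = 0.401) for *Tbr1*, 1.00 (SE 0.70, adjusted p = 0.473) for *Rasgrf2*, 0.04 (SE 0.38, adjusted p = 0.973) for *Lamp5* and −0.25 (SE 0.26, adjusted p = 0.654) for *Tle4*, none past the threshold (limma). The median was 1.04 over the 32 genes and 0.09 over all genes tested, and 0.81 and 0.08 without WT vehicle mice 2 and 7. *Cux2* and *Fezf2* passed without WT vehicle mouse 6 or 8, and *Cux2* also without WT IMN mouse 6 or Brd1+/- IMN mouse 1. Without WT vehicle mouse 2, without mouse 7 and without both, the count was 0 genes, against 2.39%, 2.86% and 1.62% of all genes. Without WT vehicle mouse 1 it was also 0 (2.16%), without WT vehicle mouse 6 or 8 it was 8 (9.28% of all genes) or 9 (10.2%), and without WT IMN mouse 5 or 8 it was 5 (6.62%) or 3 (4.98%).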

How the data were processed

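Total RNA from the CPu of each of the 31 mice was sequenced by the authors (BGISEQ-500, single-end). The authors trimmed reads with Trimmomatic, aligned them to GRCm38 (Ensembl 90) with HISAT2 2.1.0 and quantified them with StringTie 1.3.4. They deposited TPM for 52636 genes in 31 columns, 0 of which were left unused, with sums of 999787 to 999918 per mouse. Beyond a minimum number of reads for each sample, stated by the authors, the depth of each mouse is not given. Groups came from the sample labels, and symbols and positions from GENCODE M21 (GRCm38).

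Each comparison was fitted over the whole table on log2(TPM + 1) (limma 3.58.1, R 4.3.3), a scale which understates the change of low genes, with a trend in the prior variance and over genes with more than 0.1 TPM in 7 or more fitted mice. The study's edgeR test needs counts and was not run. A gene was called at a two-sided p under 0.01 or at a Benjamini-Hochberg FDR of 5% taken over all genes tested. The fit was tested on simulated normal data in which both groups had the spread of the Brd1+/- vehicle mice. This does not cover the wider spread of the WT vehicle mice.

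Fold changes are given for members among the 12 with the smallest p that had a p under 0.01 and, in every comparison, for *Slc17a7*, *Cux2*, *Lamp5*, *Rasgrf2*, *Fezf2*, *Tle4* and *Tbr1*. Members and marker lists were chosen with earlier results of these data known. Alternatives were a pseudocount of 0.1, no filter, a mean TPM of at least 1, median-of-ratios scaling, a block for the mouse number, a joint fit of the 4 groups, and omission of single mice. Leaving out WT vehicle mice 2 and 7 together was added after seeing the data. Promoter sequences are from RefSeq (GRCm38.p6).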

Additional observations from a re-analysis of the deposited data

Results flagged for a closer look

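Of 128 combinations of a gene and a group, 7 held a mouse far from the others by Dixon's criterion, which chance gives in about 1 of 20. Of these, 3 were in WT vehicle mouse 2, with *Lamp5* highest at 552 TPM, *Tle4* lowest at 13.9 TPM and *Lmo3* lowest at 22.4 TPM. In Brd1+/- vehicle mouse 1, *Nrn1* was lowest at 2.41 TPM and *Cck* lowest at 17.0 TPM. In WT IMN mouse 5, *Mef2c* was highest at 71.2 TPM and *Cux1* lowest at 32.1 TPM. The effect of IMN on *Satb1* differed between the genotypes by 1.36 on the log2 scale (adjusted p = 0.261 from limma). It was the only one of the 32 genes at a p under 0.01, where 3.74% of all genes passed, and it did not pass in 4 of the 31 fits that left out 1 mouse or, at 1.03, without WT vehicle mice 2 and 7.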

How the results depend on the processing

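The 298 fold changes of named genes under the alternatives other than omission of single mice include those with the replicate block. Of them, 272 kept their direction and side of the threshold, 15 no longer passed, 6 newly passed and 5 turned. Of the counts and medians, 87 stayed within 1.5 times (counts) or within 1 SD between mice (medians) and 12 moved. This SD is wide, and medians within it could turn, as that of IMN in Brd1+/- mice did from −0.06 to 0.011 with the replicate block. The depth of each mouse is not given beyond a stated minimum, and single mice set the counts, so calls near the threshold are uncertain. The cause of these changes was not tested.

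Of the 32 genes, 9 passed an FDR of 5% for genotype under vehicle when a mean TPM of at least 1 was required, against 10.5% of all genes. With all 4 groups in a single model 18 passed a p under 0.01 and 18 an FDR of 5%, against 21.2% and 21.7% of all genes, and for IMN in WT mice 16 (15 lower) and 13 did, against 14.4% and 10.2%. For IMN in WT mice 2 passed a p under 0.01 with a pseudocount of 0.1, against 6.65%. For IMN in Brd1+/- mice 0 passed with median-of-ratios scaling, with the replicate block or with all 4 groups together, against 1.99%, 2.15% and 1.22%. Median-of-ratios scaling moved the median of all genes under vehicle from −0.13 to −0.000773 and turned *Lamp5* to 0.10 there and to −0.10 in the interaction. A pseudocount of 0.1 turned *Fezf2* to −0.0168 and *Tbr1* to −0.15 for IMN in Brd1+/- mice. Longer layer lists moved the upper minus deep level of Brd1+/- vehicle mice to 0.94 and, within 1 SD, that of WT vehicle mice from −0.33 to 0.42.

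With the replicate block 22 genes passed a p under 0.01 and 20 an FDR of 5% for genotype under vehicle, against 17.7% and 15.4% of all genes, and *Slc17a7* turned to 0.042 for IMN in Brd1+/- mice. The block leaves out WT vehicle mouse 8, which has no partner. Deviations of mice with the same number correlated at −0.141 to 0.0615 (7 pairs) for the vehicle groups and −0.189 to 0.191 (8 pairs) for the IMN groups, and at −0.395 to 0.409 (8 pairs) in WT and −0.0689 to 0.213 (7 pairs) in Brd1+/- mice, so the numbers do not pair the mice.

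Leaving out 1 mouse at a time gave 9 to 22 genes at a p under 0.01 and 0 to 23 at an FDR of 5% for genotype under vehicle, 1 to 16 and 0 to 13 for IMN in WT mice, 0 to 2 for IMN in Brd1+/- mice and 0 to 9 for the interaction. The shares of all genes at a p under 0.01 were 8.89% to 22.4%, 3.88% to 15.3%, 1.34% to 2.18% and 2.16% to 10.2%, and at an FDR of 5% they were 0% to 23.8% under vehicle and 0.00428% to 10.5% for IMN in WT mice. Fold changes that turned ranged, under vehicle, from −0.22 to 0.24 for *Lamp5*. For genotype under IMN they ranged from −0.42 to 0.64 for *Slc17a7*, −0.13 to 0.020 for *Lamp5*, −0.33 to 0.011 for *Rasgrf2*, −0.018 to 0.064 for *Tle4* and −0.40 to 0.43 for *Tbr1*. For IMN in WT mice they ranged from −0.36 to 0.10 for *Lamp5* and −0.19 to 0.11 for *Tle4*. For IMN in Brd1+/- mice they ranged from −0.88 to 0.042 for *Slc17a7*, −0.12 to 0.18 for *Fezf2* and −0.24 to 0.38 for *Tbr1*, and for the interaction from −0.29 to 0.16 for *Lamp5*.

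Without WT vehicle mice 2 and 7 together, an alternative chosen after seeing the data, 3 genes passed a p under 0.01 for genotype under vehicle, 2 for IMN in WT mice and 0 for the interaction, against 5.83%, 2.71% and 1.62% of all genes. *Lamp5* turned to 0.27, 0.13 and −0.32 in these and *Tle4* to −0.13 for IMN in WT mice. Of the named fold changes, 19 kept their direction and call, 13 no longer passed and 4 turned.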
